A study of Mus musculus with 4 samples.

Results

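The genes described here were 10 heat shock and chaperone genes, chosen by symbol from the 32285 genes of each count table, and their RNA was followed across marker-defined cell classes of mouse lung. They were Hspa1a, Hspa1b, Hspa8 and Hsph1 of the HSP70 and HSP110 families, the co-chaperones Dnajb1 and Bag3, Hsp90aa1, the small heat shock protein gene Hspb1, and the mitochondrial chaperonin pair Hspd1 and Hspe1. Each of the 10 symbols had a single row in the tables. The study asked how low-dose chest irradiation acts on a lung injured by lipopolysaccharide (LPS), a component of the bacterial cell wall that sets off acute inflammation in the airspaces. All mice were wild-type C57BL/6 males aged 6 to 7 weeks, and there were 4 groups. LPS+RT mice received 200 µg LPS into the trachea and 1 Gy of X-rays to the thorax on the next day, LPS mice received the LPS alone, PBS+RT mice received phosphate-buffered saline (PBS) and the X-rays, and PBS mice received saline alone. Lungs were taken 48 h after the injection, which was 24 h after irradiation. The lungs of all 4 groups were dissociated with enzymes in a mechanical dissociator and then passed over a density gradient of Ficoll grade 1.084 to enrich mononuclear cells, and the RNA was captured with the 10x Genomics 3' kit version 3.1. How many mice made up each library is not stated in the labels. Names such as the PBS lung below therefore stand for the library of that group.

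Each group was 1 library, so no comparison between groups has a replicate check, no test between groups was possible, and every interval below covers counting error only. After filters on UMIs (unique molecular identifiers, which count captured RNA molecules), genes, mitochondrial share and doublets, 9669 cells remained in LPS+RT, 8958 in LPS, 6243 in PBS+RT and 8909 in PBS, and the median UMIs per cell were 4288, 5554, 8591 and 4294 in that order. The PBS+RT library thus stood apart in depth per cell. The cells were clustered without the 10 genes and without the other stress and chaperone genes used here, and the 61 clusters were named from fixed markers. A class is therefore written as "B-like" or "T-like" and so on, and 13 clusters with 4524 cells stayed unnamed. The platelet-like class was cluster 6 alone, which also carried 3 endothelial markers. At a finer clustering 519 cells were named platelet-like. Another platelet-marked cluster of 961 cells stayed unnamed there, because it held markers of more than 1 class. What RNA of other cells adds to the platelet-like values was not tested. A level is the UMIs of a gene summed over the cells of a class, scaled by all UMIs of that class to a common total (CPM). Alveolar type 1-like, alveolar type 2-like, alveolar macrophage-like and endothelial-like cells were present in each library, as the tissue label requires. A level was read only where the class had at least 100 cells in the library, which holds in all 4 libraries for 8 classes, namely endothelial-like, fibroblast-like, alveolar type 1-like, platelet-like, alveolar macrophage-like, B-like, T-like and NK-like cells. A gene is called higher or lower where it was at least 1.5-fold apart between 2 libraries and reached 10 CPM and 20 UMIs in the higher one. Cell barcodes shared between libraries were not analysed here.

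Heat shock proteins are chaperones, which bind unfolded or newly made proteins and help them to reach or keep their fold. The transcription factor HSF1 switches on the inducible members when unfolded proteins gather, as after heat, oxidants or fever, while others are made at all times for routine folding. HSP70 works in a cycle with a J-domain protein such as DNAJB1, which loads the client, and with a nucleotide exchange factor such as HSPH1 or BAG3, which releases it. HSP90 matures kinases and steroid receptors, HSPB1 holds unfolded proteins without ATP, and the HSPD1 barrel with its HSPE1 lid folds proteins inside mitochondria. In dissociated tissue the inducible heat shock genes and the immediate early genes are also known to respond to the dissociation itself. The lungs of all 4 groups were dissociated. A response of living tissue and a response of the released cells therefore cannot be told apart in these data. The levels of 20 immediate early genes are given beside the results.

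HSF1 binds heat shock elements, which are GAA units in alternating orientation, so the sequence upstream of the members that differed most between libraries is shown first. Windows of 300 bases around the start site were at hand from RefSeq (GRCm38.p6) for 8 of the 10 genes, and Hspa8 and Hsp90aa1 are only named. The motif of 2 units (GAANNTTC or TTCNNGAA, searched on both strands, matches allowed to overlap) was present in 7 of these 8 genes, against 15.1% of all 32851 windows in the RefSeq table. The motif of 3 units, which adds 1 more unit with the same spacing to the motif of 2, was present in 3 of the 8 genes, Hsph1, Hspd1 and Hspe1, against 0.603% of all windows. These counts are per gene, over 11 windows for the 8 genes, while the percentages are per window. A gene counted where any of its windows held a match. No match was present in the windows of Dnajb1. Capitals mark the matches below. The inducible HSP70 genes and Hspb1 are shown because most of the results turn on them, as the 150 bases before the start of Hspa1a (chr17:34972157-34972306, minus strand), Hspa1b (chr17:34959239-34959388, minus strand) and Hspb1 (chr5:135887769-135887918, plus strand). Hspe1 (chr1:55088053-55088082, plus strand) and Hsph1 (chr5:149636279-149636308, minus strand) are shown over 30 bases for their 3-unit motifs.
Hspa1a: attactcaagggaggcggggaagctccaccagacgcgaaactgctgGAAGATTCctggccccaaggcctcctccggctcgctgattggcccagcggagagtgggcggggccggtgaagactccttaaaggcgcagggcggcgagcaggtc
Hspa1b: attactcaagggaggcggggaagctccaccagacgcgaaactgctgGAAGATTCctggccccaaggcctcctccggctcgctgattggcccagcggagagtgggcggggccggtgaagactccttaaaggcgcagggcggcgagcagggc
Hspb1: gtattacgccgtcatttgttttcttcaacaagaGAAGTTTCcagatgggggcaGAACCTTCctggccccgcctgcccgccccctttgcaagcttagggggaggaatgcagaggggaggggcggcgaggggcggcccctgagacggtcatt
Hspe1: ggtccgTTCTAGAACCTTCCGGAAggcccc
Hsph1: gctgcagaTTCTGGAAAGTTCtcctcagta
Hspa1a and Hspa1b shared 149 of these 150 bases (99.3%) and the same single 2-unit match. Hspb1 held 2 separate matches. The Hspe1 stretch lies 95 to 66 bases before its start. Hspe1 and Hspd1 are transcribed away from each other, and the 3-unit match counted for Hspd1 is this same stretch. A further Hspd1 window held no match. The stretch also falls inside an exon of a Hspd1 transcript. The Hsph1 stretch lies 8 to 37 bases after the start site, inside an exon of the gene. A match is a stretch of letters and not a site shown to be bound.

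Hspa1a (ENSMUSG00000091971, chromosome 17:34969190-34972156, minus strand, mm10, GENCODE M21) and Hspa1b (ENSMUSG00000090877, chromosome 17:34956436-34959238, minus strand) are neighbouring near-identical copies. Of the stretches of 100 bases in the Hspa1a transcript, 47.1% also occurred in Hspa1b, and 49.9% of those of Hspa1b occurred in Hspa1a. None of the 401 stretches in the last 500 bases of either transcript, where a 3' kit takes most of its reads, occurred in the other. The split of reads from the shared stretches is uncertain, and how shared reads were treated is not given in the sources used here. An exon of Gm20481 lies within Hspa1a, and exons of Hspd1 (chromosome 1:55077835-55088243, minus strand) and Hspe1 (chromosome 1:55088132-55091307, plus strand) overlap at their 5' ends. Whether the counting used strand is not given in the sources used here. The other members are Hspa8 (chromosome 9:40800984-40810087), Hsph1 (chromosome 5:149614287-149636376), Dnajb1 (chromosome 8:83608193-83612653), Bag3 (chromosome 7:128523616-128546981), Hsp90aa1 (chromosome 12:110690605-110702728) and Hspb1 (chromosome 5:135887919-135889563).

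The members fell into different cell classes. Hspb1, which stabilises actin and holds unfolded proteins, was highest in fibroblast-like and endothelial-like cells of each library. In fibroblast-like cells Hspb1 was at 820.0 CPM in LPS+RT, 669 CPM in LPS, 557 CPM in PBS+RT and 989.7 CPM in PBS, and in endothelial-like cells it was at 599 CPM in LPS+RT, 459.9 CPM in LPS, 366 CPM in PBS+RT and 817 CPM in PBS. In T-like cells it was at 5.35 CPM (18 UMIs) in LPS+RT, 5.09 CPM (25 UMIs) in LPS, 5.61 CPM (13 UMIs) in PBS+RT and 14.2 CPM (39 UMIs) in PBS. The lowest fibroblast-like or endothelial-like level of Hspb1 was thus far above the highest level in T-like, NK-like, B-like or alveolar macrophage-like cells, which was 27.7 CPM. Dnajb1, the J-domain partner of HSP70, and Bag3, which hands HSP70 clients to autophagy, both had their highest level in fibroblast-like cells of every library. Dnajb1 reached 471 CPM in LPS+RT, 412 CPM in LPS, 508 CPM in PBS+RT and 553 CPM in PBS there, and alveolar macrophage-like cells had 27.4 CPM in LPS+RT, 27.4 CPM in LPS, 25.3 CPM in PBS+RT and 33.0 CPM in PBS. Bag3 was at 202 CPM in LPS+RT, 207 CPM in LPS, 224 CPM in PBS+RT and 192 CPM in PBS in fibroblast-like cells, and its level in B-like cells lay between 6.96 and 9.98 CPM.

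Hspa1a, the inducible HSP70 gene, had its highest level of all class and library points in pericyte or smooth muscle-like cells of the PBS lung (671 CPM, 95% counting interval 616 to 729.7). That value rested on cluster 38, with 52 of the 206 cells and 1034 CPM, while the other 154 cells, cluster 27, were at 139 CPM. Its level was 23.8 CPM in LPS+RT and 13.7 CPM in LPS in neutrophil-like cells, the lowest class of both LPS libraries. Hspa8, the constitutive HSP70 known as HSC70, was highest in interstitial macrophage-like cells, at 2001 CPM in LPS+RT and 2189.8 CPM in LPS. Its lowest class in these libraries was again the neutrophil-like one, at 437 CPM in LPS+RT and 439.9 CPM in LPS. Hsp90aa1, the inducible HSP90 gene, was highest in alveolar type 1-like cells of each library, at 654 CPM in LPS+RT, 879 CPM in LPS, 747 CPM in PBS+RT and 1009 CPM in PBS. Hsph1, the HSP110 exchange factor, had its highest point in B-like cells of the LPS lung (179 CPM). Hspd1, the HSP60 barrel, had it in alveolar macrophage-like cells of the LPS lung (303 CPM). Erythroid-like cells, read in the PBS lung alone, held the lowest value of 9 of the 10 genes. Bag3 had 0 UMIs there, with a 95% counting interval that reached up to 2.78 CPM.

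The order of the classes by Hspa1a differed between libraries. In the PBS lung pericyte or smooth muscle-like cells led, before fibroblast-like (489 CPM), endothelial-like (339) and nonclassical monocyte-like cells (230.3), and the counting intervals of these neighbours did not overlap. Alveolar type 2-like (112), platelet-like (92.8), B-like (83.3) and alveolar type 1-like cells (77.1) followed with overlapping intervals. In the LPS lung nonclassical monocyte-like cells came first (322 CPM), and the next 4 classes, dendritic-like (239.7), fibroblast-like (229), B-like (228) and endothelial-like (213), had overlapping neighbours. Pericyte or smooth muscle-like cells, with 78 cells in LPS, were not read there. Hspb1 kept fibroblast-like first and endothelial-like second in all 4 libraries, with no overlap between the 2. Hspe1 had T-like cells first in both PBS-treated libraries, at 161 CPM in PBS+RT and 298 CPM in PBS, with an overlapping neighbour in each, and endothelial-like cells were the lowest class of PBS+RT.

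**Figure D1:**
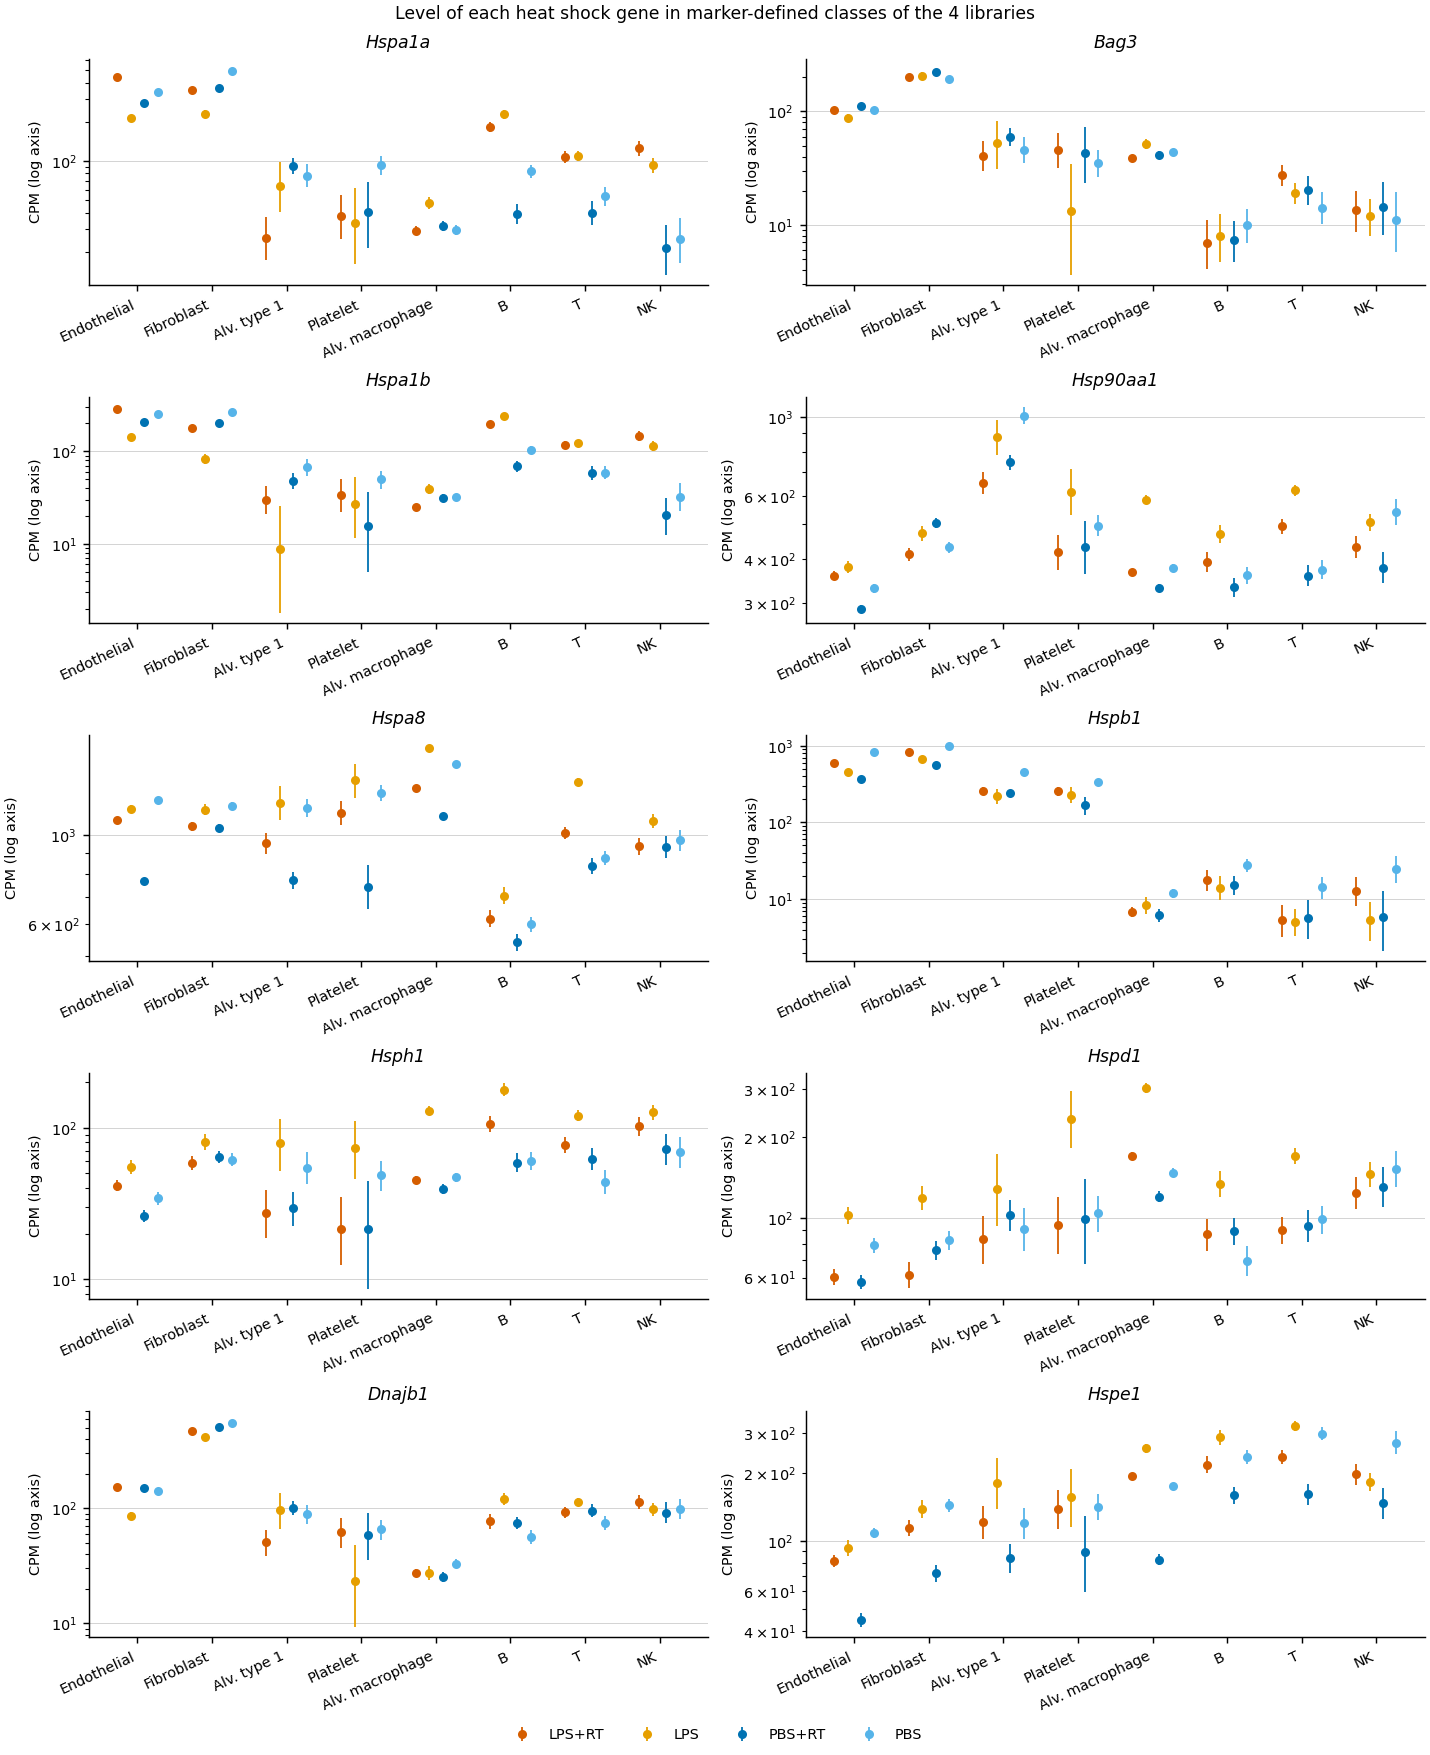
Level of each of the 10 genes (CPM, log axis) in 8 classes, with 1 point per library in the order LPS+RT, LPS, PBS+RT, PBS and bars for the 95% Poisson counting interval. Hspb1, Dnajb1 and Bag3 were highest in fibroblast-like cells, and in NK-like cells Hspa1a stood at 125 and 92.9 CPM in LPS+RT and LPS, above 21.3 and 25.0 CPM in PBS+RT and PBS.

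After LPS alone, 7 of the 10 genes were higher in T-like cells and 5 in B-like cells, and 4 were lower in endothelial-like cells. Of the 87 pairs of a member and a class that could be read between the LPS and the PBS lung (of 90 in 9 classes), 24 (27.6%) were at least 1.5-fold higher and 16 (18.4%) at least 1.5-fold lower. Over all 70523 pairs of a gene and a class the shares were 13.1% higher and 14.7% lower. In T-like cells 7 of the 10 members were higher, against 17.4% of all genes read there, namely Hspa1a, Hspa1b, Hspa8, Hsph1, Dnajb1, Hsp90aa1 and Hspd1. In B-like cells 5 of 9 were higher, against 15.5% of all genes, namely Hspa1a, Hspa1b, Hsph1, Dnajb1 and Hspd1. In endothelial-like cells 4 of 10 were lower, against 8.91% of all genes, namely Hspa1a, Hspa1b, Dnajb1 and Hspb1. Alveolar macrophage-like cells had 4 of 10 higher and 0 lower, against 16.0% and 13.1% of all genes. NK-like cells had 3 of 10 higher and 1 lower, against 14.6% and 11.8%, and 5 of the 10 lay on each side of 0. Fibroblast-like cells had 0 of 10 higher and 2 lower, against 12.2% and 14.8%, and alveolar type 1-like cells had 1 of 9 higher and 2 lower, against 6.79% and 27.1%, so their shares lower were near or under the background. In each comparison the 2 libraries also differed in all genes together, and the median log2 ratio over all genes of a class lay between -0.36 and 0.22. Centring the log2 ratios on that median reversed the direction of no member value past 1.5-fold among the 229 recomputed, but it changed the counts. LPS against PBS became 25 higher and 16 lower, and LPS+RT against PBS+RT 28 higher and 2 lower. LPS+RT against LPS became 13 higher and 23 lower, and PBS+RT against PBS 0 higher and 34 lower. The shares of all pairs became 12.9% and 14.0%, 14.0% and 11.2%, 8.54% and 9.27%, and 12.9% and 16.2% in that order.

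The comparison of the irradiated pair, LPS+RT against PBS+RT, had 21 of 83 pairs higher (25.3%, against 9.82% of all pairs) and 4 lower (4.82%, against 17.5% of all pairs). The genes higher in the most classes were Hspa1a, Hspa1b and Hspe1, in 5 classes each. When irradiation was the difference within LPS-treated lungs, LPS+RT against LPS, 11 of 105 pairs were higher (10.5%, against 8.31% of all pairs) and 26 were lower (24.8%, against 10.2%). With each cell given equal weight this split was 15 higher and 22 lower. Alveolar macrophage-like cells had 5 of 9 members lower, against 11.1% of all genes there, namely Hspa1a, Hspa1b, Hsph1, Hsp90aa1 and Hspd1. Irradiation without LPS, PBS+RT against PBS, gave 0 of 87 pairs higher, against 16.4% of all pairs, and 29 lower (33.3%, against 14.2%). In endothelial-like cells 3 of 10 were lower, against 15.3% of all genes, namely Hspa8, Hspb1 and Hspe1. These 4 comparisons use 4 libraries between them and each library enters 2, so their results do not stand apart from each other.

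**Figure D2:**
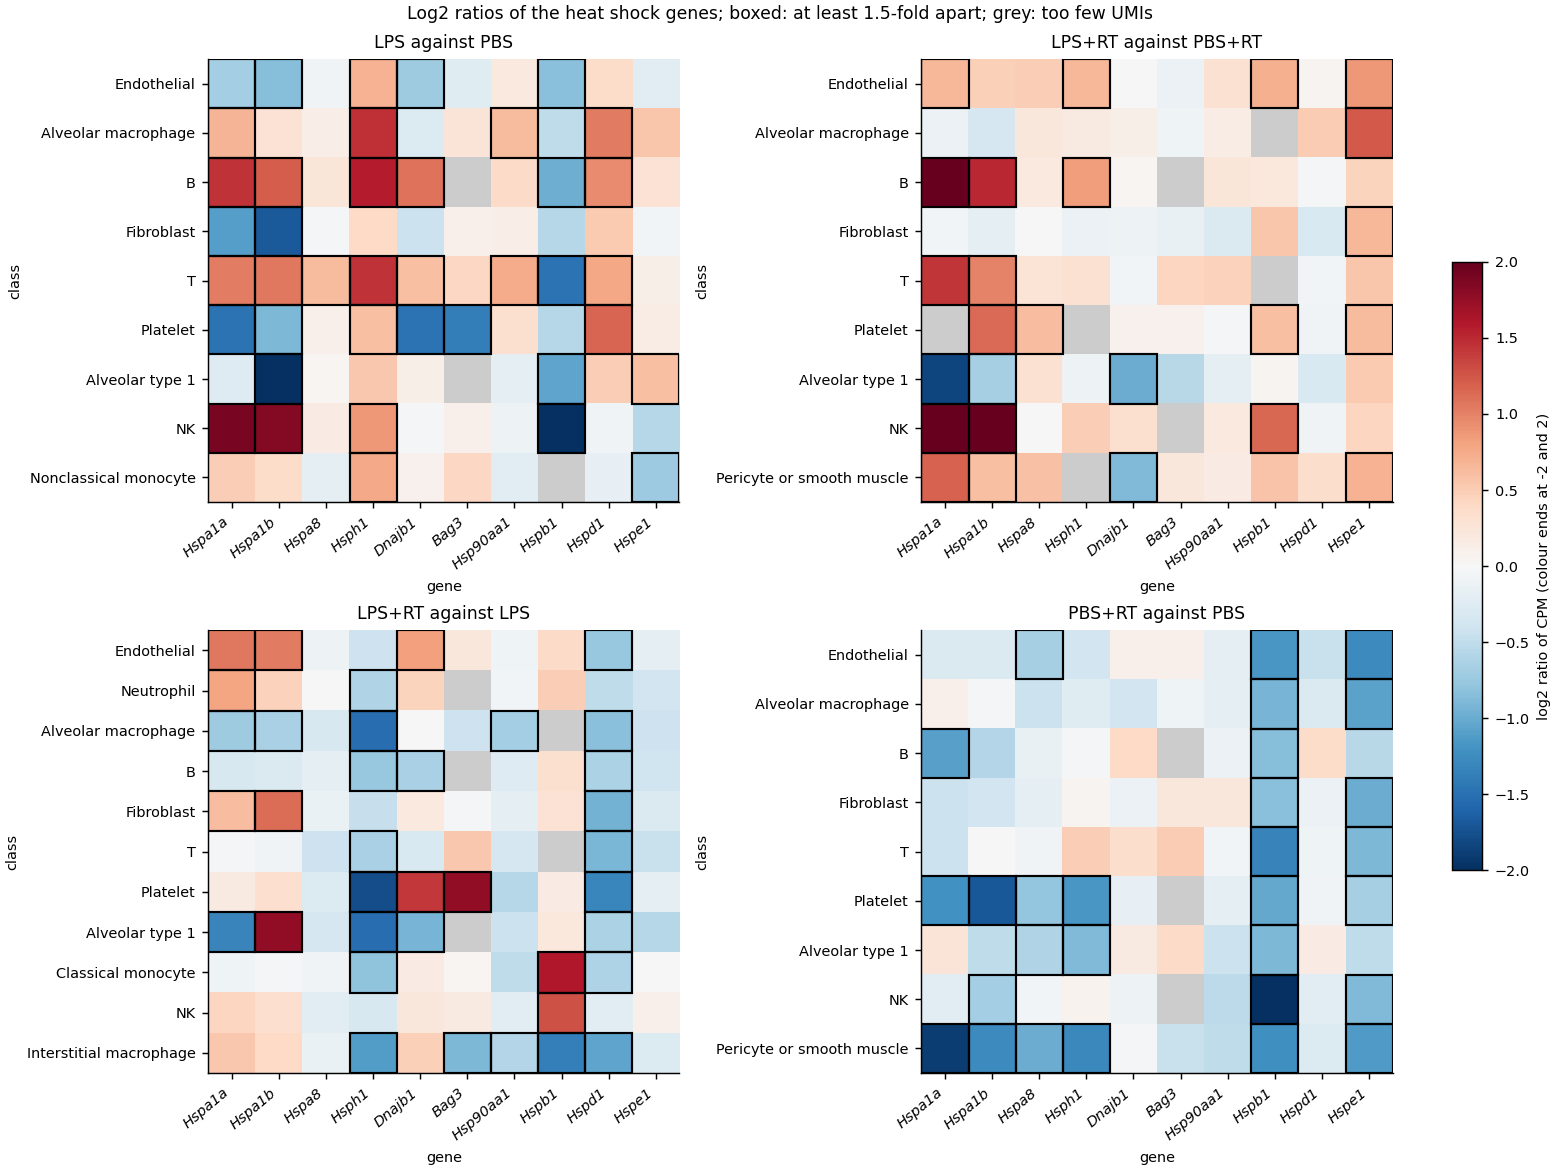
Log2 ratio of CPM for each of the 10 genes (columns) in each class read (rows), for LPS against PBS, LPS+RT against PBS+RT, LPS+RT against LPS and PBS+RT against PBS, with pairs at least 1.5-fold apart boxed and pairs with too few UMIs in grey. The PBS+RT against PBS panel holds 29 boxes on the lower side and 0 on the higher side, and the Hspb1 column is boxed in 9 of 9 classes.

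Inducible HSP70 RNA was higher in lymphocyte-like cells after LPS, with or without irradiation, and lower in endothelial-like and fibroblast-like cells after LPS alone. In B-like cells Hspa1a was at 183 CPM (447 UMIs) in LPS+RT, 228 CPM (516 UMIs) in LPS, 39.1 CPM (128 UMIs) in PBS+RT and 83.3 CPM (292 UMIs) in PBS lungs. Both LPS-treated libraries lay above both others there. The LPS level was 2.73-fold (95% counting interval 2.36 to 3.17; log2 ratio 1.45) that of PBS, and the LPS+RT level was 4.68-fold (95% counting interval 3.84 to 5.75; log2 ratio 2.23) that of PBS+RT. In NK-like cells Hspa1a was at 125 CPM (223 UMIs) in LPS+RT, 92.9 CPM (227 UMIs) in LPS, 21.3 CPM (22 UMIs) in PBS+RT and 25.0 CPM (27 UMIs) in PBS lungs, and the 4 libraries again split by LPS. The ratios were 3.72-fold (95% counting interval 2.49 to 5.77; log2 ratio 1.90) for LPS against PBS and 5.88-fold (95% counting interval 3.79 to 9.58; log2 ratio 2.56) for LPS+RT against PBS+RT. T-like cells had the same split, with 107 CPM (361 UMIs) in LPS+RT, 109 CPM (534 UMIs) in LPS, 39.7 CPM (92 UMIs) in PBS+RT and 53.5 CPM (147 UMIs) in PBS, and ratios of 2.03-fold (95% counting interval 1.69 to 2.45; log2 ratio 1.02) and 2.70-fold (95% counting interval 2.14 to 3.44; log2 ratio 1.43).

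Hspa1b, the twin gene, gave like values. In B-like cells it was at 196 CPM in LPS+RT, 238 CPM in LPS, 69.03 CPM in PBS+RT and 103 CPM in PBS. T-like cells had 117 CPM in LPS+RT, 123 CPM in LPS, 58.7 CPM in PBS+RT and 59.0 CPM in PBS. NK-like cells had 145 CPM in LPS+RT, 115 CPM in LPS, 20.3 CPM in PBS+RT and 32.3 CPM in PBS. All 3 classes had their 2 highest levels in the LPS-treated lungs. Within the single largest cluster of each class the log2 ratios of LPS against PBS stayed on the same side, at 1.44 for Hspa1a and 1.26 for Hspa1b in B-like cluster 3, 1.24 and 1.34 in T-like cluster 13, and 1.90 and 1.83 in the only NK-like cluster. Beside these, the summed level of the 20 immediate early genes in B-like cells was 5386 CPM in LPS+RT, 6139.5 CPM in LPS, 4636 CPM in PBS+RT and 5975 CPM in PBS, and in T-like cells it was 4643 CPM in LPS+RT, 4167 CPM in LPS, 3516 CPM in PBS+RT and 4144 CPM in PBS. NK-like cells had 6272 CPM in LPS+RT, 5889 CPM in LPS, 4337 CPM in PBS+RT and 5283 CPM in PBS. It was higher in both LPS-treated libraries than in both others in NK-like cells, by less than the HSP70 genes, and not in B-like cells. In T-like cells the LPS and PBS levels were nearly equal. The median log2 ratio of the immediate early genes there was -0.10 for LPS against PBS, beside 0.11 over all genes. For LPS+RT against PBS+RT it was 0.45, beside -0.19 over all genes. In NK-like cells these medians were 0.18, beside 0.06, and 0.65, beside -0.12, in the same order of comparisons. For LPS+RT against PBS+RT 11 of 18 immediate early genes were at least 1.5-fold higher there and 0 lower, against 9.26% of all genes higher. In B-like cells the medians were -0.04, beside 0.14, and 0.07, beside -0.16. Jun alone, the AP-1 subunit, was at 229 CPM in LPS+RT, 496 CPM in LPS, 153 CPM in PBS+RT and 230.4 CPM in PBS in B-like cells. Their part in the HSP70 difference was not tested. S100a8, a neutrophil transcript, was at 40.1 CPM in LPS+RT, 174 CPM in LPS, 15.6 CPM in PBS+RT and 13.1 CPM in PBS in B-like cells, and its part was not tested.

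The share of cells with a Hspa1a UMI followed the level. With every cell thinned to 1500 UMIs, so that depth does not set the share, 13.3% (10.3 to 16.8%) of B-like cells in LPS+RT and 17.9% (14.4 to 21.9%) in LPS held one, against 4.39% (2.58 to 6.94%) in PBS+RT and 7.90% (5.80 to 10.5%) in PBS (exact binomial 95% intervals). The unthinned shares were 17.5%, 27.7%, 13.2% and 15.6% in the same order, and 7 to 19 cells per library were too shallow to be thinned. In B-like and endothelial-like cells Hspa1b UMIs were more frequent in cells with a Hspa1a UMI. Of thinned B-like cells with a Hspa1a UMI, 70.0% in LPS+RT, 57.1% in LPS, 52.9% in PBS+RT and 56.8% in PBS also held a Hspa1b UMI. Among the other B-like cells the shares were 6.39%, 9.66%, 5.14% and 6.82%. Endothelial-like cells gave 47.8%, 36.0%, 40.8% and 48.0% among Hspa1a-positive cells and 11.5%, 9.15%, 10.5% and 12.7% among the others. In alveolar macrophage-like and platelet-like cells the shares rested on 0 to 8 cells with both, and no cell of the platelet-like class held both in PBS+RT. The 2 transcripts share sequence outside their last 500 bases, and its part in these shares was not tested.

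In endothelial-like cells Hspa1a was at 439.6 CPM (5807 UMIs) in LPS+RT, 213 CPM (1404 UMIs) in LPS, 277 CPM (5362 UMIs) in PBS+RT and 339 CPM (4474 UMIs) in PBS lungs. The highest level was in the lung with both treatments and the lowest in the lung with LPS alone. The LPS level was 1.59-fold (95% counting interval 1.501 to 1.69; log2 ratio -0.67) lower than the PBS level, and the LPS+RT level was 2.07-fold (95% counting interval 1.95 to 2.19; log2 ratio 1.05) the LPS level. Hspa1b had the same order, at 289.5 CPM in LPS+RT, 141 CPM in LPS, 209 CPM in PBS+RT and 256 CPM in PBS, and Dnajb1, which loads clients onto HSP70, was at 152 CPM in LPS+RT, 86.1 CPM in LPS, 151 CPM in PBS+RT and 141 CPM in PBS. The LPS library was the lowest of the 4 for all 3 genes. In fibroblast-like cells Hspa1a was at 349.8 CPM in LPS+RT, 229 CPM in LPS, 364 CPM in PBS+RT and 489 CPM in PBS, and Hspa1b was at 179 CPM in LPS+RT, 82.8 CPM in LPS, 203 CPM in PBS+RT and 265 CPM in PBS. LPS was the lowest library again, while PBS was the highest, with log2 ratios of LPS against PBS of -1.10 and -1.68. For LPS+RT against PBS+RT they were -0.06 and -0.19.

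Immediate early RNA was also lowest in the LPS library in these structural cells. The other libraries stood in another order than for Hspa1a, with some totals nearly equal. Its summed level was 22556 CPM in LPS+RT, 13507 CPM in LPS, 22373 CPM in PBS+RT and 20859.7 CPM in PBS in endothelial-like cells and 36798 CPM in LPS+RT, 25673 CPM in LPS, 33681 CPM in PBS+RT and 36239 CPM in PBS in fibroblast-like cells, lowest in the LPS library in both. In endothelial-like cells Fos was at 1584 CPM in LPS+RT, 919.9 CPM in LPS, 1902 CPM in PBS+RT and 1354 CPM in PBS, and Jun was at 2732 CPM in LPS+RT, 1990.1 CPM in LPS, 2841 CPM in PBS+RT and 2856 CPM in PBS. Egr1 was at 1937 CPM in LPS+RT, 1071 CPM in LPS, 2314 CPM in PBS+RT and 1653 CPM in PBS, and Atf3 was at 984 CPM in LPS+RT, 696 CPM in LPS, 1100.1 CPM in PBS+RT and 787 CPM in PBS. The LPS library held the lowest level of each of these transcription factor genes. In endothelial-like cells 9 of 20 immediate early genes were lower and 0 higher for LPS against PBS, against 8.91% of all genes lower. For LPS+RT against LPS 13 were higher and 0 lower, against 4.66% of all genes higher. In fibroblast-like cells 9 were lower and 0 higher (14.8% of all genes lower), then 7 higher and 0 lower (6.70% higher). For LPS+RT against PBS+RT endothelial-like cells had 0 higher and 2 lower. Neutrophil RNA was also unequal, with S100a8 at 47.8 CPM in LPS+RT, 549 CPM in LPS, 16.1 CPM in PBS+RT and 24.8 CPM in PBS in endothelial-like cells, while Sftpc of alveolar type 2 cells was at 119.8 CPM in LPS+RT, 114 CPM in LPS, 101 CPM in PBS+RT and 194 CPM in PBS. The part of either, or of the immediate early genes, in the result was not tested.

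The endothelial-like class was made of clusters of unequal depth, and the clusters did not go the same way. Cluster 0, with a median of 1005 UMIs per cell and 1517 CPM of the nuclear RNA Malat1, held 41.4% of these cells in LPS+RT, 44.7% in LPS, 19.1% in PBS+RT and 33.4% in PBS. Cluster 1, with a median of 7103.5 UMIs and 28908 CPM of Malat1, held 22.4%, 25.2%, 51.4% and 15.3% in the same order. For LPS against PBS the Hspa1a log2 ratio was -0.71 in cluster 0, -1.11 in cluster 7 and -1.63 in cluster 15, but 0.73 in cluster 1. For LPS+RT against LPS it was 0.44, 1.66, 1.39 and 0.25 in clusters 0, 7, 15 and 1, positive in all 4. With all clusters under 2000 median UMIs left out, a choice made after seeing the data, the class gave -0.62 for LPS against PBS and 1.04 for LPS+RT against LPS.

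In alveolar macrophage-like cells Hspa1a was low, at 29.1 CPM (654 UMIs) in LPS+RT, 47.6 CPM (337 UMIs) in LPS, 31.7 CPM (541 UMIs) in PBS+RT and 29.6 CPM (468 UMIs) in PBS lungs, and LPS stood above the 3 others. Its log2 ratio of LPS against PBS was 0.69 (95% counting interval of the ratio 1.39 to 1.85), and it turned to -0.84 when doublets were kept, so its direction is not settled. These cells came mainly from cluster 16 in LPS+RT (64.1%) and LPS (71.5%) and mainly from cluster 4 in PBS+RT (95.9%) and PBS (89.3%). In alveolar type 1-like cells Hspa1a rested on 29 UMIs in LPS+RT, 22 in LPS, 194 in PBS+RT and 99 in PBS. Its log2 ratio of LPS+RT against PBS+RT was -1.84 over the class and -0.02 within its main cluster 9.

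**Figure D3:**
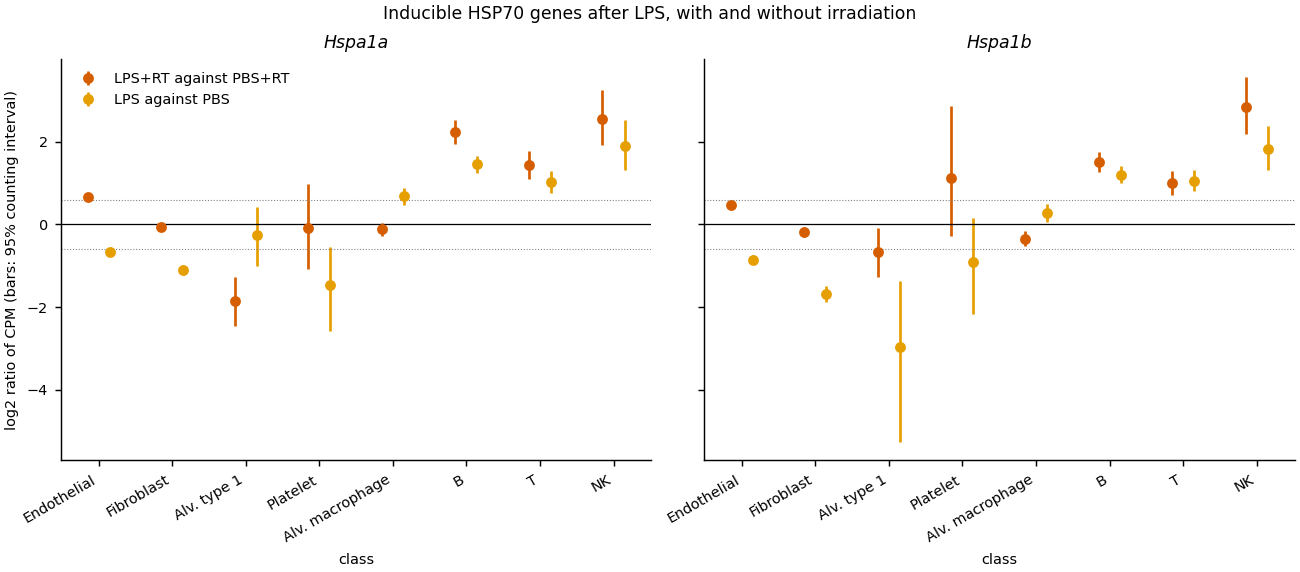
Log2 ratio of CPM of Hspa1a and Hspa1b in 8 classes for LPS+RT against PBS+RT (left point of each pair) and LPS against PBS (right point), with bars for the 95% counting interval and dotted lines at 1.5-fold. B-like, T-like and NK-like cells lay above the upper line in both comparisons, and endothelial-like Hspa1a lay at 0.67 with irradiation and -0.67 without it.

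Hsph1, which releases clients from HSP70, was the member higher in the most classes after LPS alone. It was higher in LPS than in PBS by direction in 9 of 9 classes and by at least 1.5-fold in 7. In alveolar macrophage-like cells, drawn mainly from cluster 16 in LPS and cluster 4 in PBS, it was at 45.0 CPM (1010 UMIs) in LPS+RT, 129.96 CPM (920 UMIs) in LPS, 39.7 CPM (678 UMIs) in PBS+RT and 47.1 CPM (744 UMIs) in PBS lungs, and in B-like cells at 106 CPM in LPS+RT, 179 CPM in LPS, 58.9 CPM in PBS+RT and 60.5 CPM in PBS. T-like cells had 76.7 CPM in LPS+RT, 120.2 CPM in LPS, 62.2 CPM in PBS+RT and 44.1 CPM in PBS. In each of these 3 classes the LPS library was the highest of the 4. The LPS level was 2.76-fold (95% counting interval 2.50 to 3.05; log2 ratio 1.47) the PBS level in alveolar macrophage-like cells and 2.95-fold (95% counting interval 2.50 to 3.50; log2 ratio 1.56) that in B-like cells. LPS+RT was lower than LPS in 11 of 11 classes, 8 of them by at least 1.5-fold, with log2 ratios between -1.77 in platelet-like and -0.31 in NK-like cells. Without the clusters under 2000 median UMIs these counts were 6 of 7 higher for LPS against PBS, and 6 of 9 lower for LPS+RT against LPS, with all 7 and all 9 in the same directions. With cells thinned to 1500 UMIs the fibroblast-like value changed sign in both comparisons.

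Hspa8, the housekeeping HSP70, differed little by LPS. It was at 1089 CPM in LPS+RT, 1162 CPM in LPS, 770.0 CPM in PBS+RT and 1221 CPM in PBS in endothelial-like cells and at 1313 CPM in LPS+RT, 1646 CPM in LPS, 1118 CPM in PBS+RT and 1505 CPM in PBS in alveolar macrophage-like cells, where PBS+RT was the lowest library. T-like cells were the class above 1.5-fold after LPS alone, at 1012 CPM in LPS+RT, 1356 CPM in LPS, 836 CPM in PBS+RT and 875 CPM in PBS, and the LPS level was 1.55-fold (95% counting interval 1.48 to 1.62; log2 ratio 0.63) that of PBS. T-like cells came mainly from cluster 20 in LPS (55.2%) and from cluster 13 in PBS (69.4%), and within cluster 13 the log2 ratio was 0.27, under 1.5-fold. For PBS+RT against PBS its log2 ratios were negative in 9 of 9 classes and at least 1.5-fold lower in 4, namely endothelial-like (-0.67), alveolar type 1-like (-0.60), platelet-like (-0.78) and pericyte or smooth muscle-like cells (-0.99). Within endothelial-like clusters 0, 1, 7 and 15 they were -0.68, -0.03, -0.74 and -0.98, and cluster 1 held 51.4% of the PBS+RT cells. Without the clusters under 2000 median UMIs 1 of 6 classes was at least 1.5-fold lower. For LPS+RT against PBS+RT they were positive in 9 of 9 classes, 1 of them by at least 1.5-fold.

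Of the co-chaperones, Dnajb1 was higher after LPS alone in B-like cells, at 77.0 CPM (188 UMIs) in LPS+RT, 120.4 CPM (273 UMIs) in LPS, 74.8 CPM (245 UMIs) in PBS+RT and 56.7 CPM (199 UMIs) in PBS lungs. The LPS level was 2.12-fold (95% counting interval 1.76 to 2.56; log2 ratio 1.08) that of PBS. After LPS alone it was 1.63-fold lower in endothelial-like cells (95% counting interval 1.49 to 1.80). With irradiation on both sides the log2 ratios of LPS+RT against PBS+RT were 0.04 and 0.01 in these classes. Bag3 had 3 calls over the 4 comparisons, but it could not be read in every class. It was read in 7 of 9 classes for LPS against PBS and 7 of 9 for LPS+RT against PBS+RT. For LPS+RT against LPS it was read in 8 of 11, and for PBS+RT against PBS in 6 of 9. In endothelial-like cells it was at 103 CPM in LPS+RT, 87.8 CPM in LPS, 112 CPM in PBS+RT and 104 CPM in PBS, and in alveolar macrophage-like cells at 38.9 CPM in LPS+RT, 51.8 CPM in LPS, 41.2 CPM in PBS+RT and 43.6 CPM in PBS. Both classes, and fibroblast-like cells, stayed within 1.5-fold in each of the 4 comparisons. The calls were 1 lower (platelet-like, LPS against PBS), 1 higher (platelet-like, LPS+RT against LPS) and 1 lower (interstitial macrophage-like, LPS+RT against LPS). Both platelet-like calls rest on 4 UMIs in the LPS library.

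Hsp90aa1, whose protein matures signalling kinases, was higher in LPS than in PBS in alveolar macrophage-like cells, at 367 CPM (8241 UMIs) in LPS+RT, 587 CPM (4153 UMIs) in LPS, 330.5 CPM (5642 UMIs) in PBS+RT and 378 CPM (5970 UMIs) in PBS lungs. The LPS level was 1.55-fold (95% counting interval 1.49 to 1.62; log2 ratio 0.64) that of PBS. T-like cells had 493 CPM in LPS+RT, 623 CPM in LPS, 358 CPM in PBS+RT and 373 CPM in PBS, with the LPS level 1.67-fold (95% counting interval 1.55 to 1.79; log2 ratio 0.74) that of PBS. Within T-like cluster 13 its log2 ratio was 0.38, under 1.5-fold. The LPS library was the highest in both classes. LPS+RT lay below LPS in 11 of 11 classes, though by at least 1.5-fold in 2, alveolar macrophage-like (log2 ratio -0.68) and interstitial macrophage-like cells (-0.59). Without the clusters under 2000 median UMIs, 8 of 9 classes lay below LPS and endothelial-like cells gave 0.02.

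Hspb1 was lower in the PBS+RT lung than in the PBS lung in 9 of 9 classes, each by at least 1.5-fold. In endothelial-like cells it was at 599 CPM (7909 UMIs) in LPS+RT, 459.9 CPM (3038 UMIs) in LPS, 366 CPM (7089 UMIs) in PBS+RT and 817 CPM (10783 UMIs) in PBS lungs, with the PBS level the highest and the PBS+RT level the lowest. The PBS+RT level was 2.23-fold (95% counting interval 2.17 to 2.30; log2 ratio -1.16) lower than the PBS level. Fibroblast-like cells had the same order of libraries, and PBS+RT was 1.78-fold (95% counting interval 1.71 to 1.85; log2 ratio -0.83) lower than PBS there. Alveolar type 1-like cells had 254 CPM in LPS+RT, 219 CPM in LPS, 244 CPM in PBS+RT and 456 CPM in PBS, and pericyte or smooth muscle-like cells had 137 CPM in LPS+RT, 92.5 CPM in PBS+RT and 217 CPM in PBS. PBS was the highest library in both, of 4 and of the 3 read. LPS alone was also below PBS, in 8 of 8 classes read and by at least 1.5-fold in 5. The LPS+RT level was above PBS+RT in 7 of 7 classes, in 3 of them by at least 1.5-fold, and log2 ratios were 0.71 in endothelial-like and 0.56 in fibroblast-like cells. PBS was therefore the library with the most Hspb1 RNA in endothelial-like, fibroblast-like and alveolar type 1-like cells.

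The size of the Hspb1 difference, and for LPS against PBS its direction, depended on the cluster. Within endothelial-like clusters 0, 1, 7 and 15 the log2 ratios of PBS+RT against PBS were -0.59, -0.37, -1.12 and -1.27. Without the clusters under 2000 median UMIs the class gave -1.23, and 6 of 6 classes stayed at least 1.5-fold lower. For LPS against PBS the log2 ratios in clusters 0, 1, 7 and 15 were -0.36, 0.35, -0.84 and -0.52, so cluster 1 went the other way. For LPS+RT against PBS+RT they were 0.01, 0.52, 0.77 and 0.32. With cells thinned to 1500 UMIs, 25.6% (23.8 to 27.6%) of endothelial-like cells in PBS+RT held a Hspb1 UMI, against 39.5% (37.4 to 41.7%) in PBS. Among thinned alveolar macrophage-like cells, which had little Hspb1, the shares were 0.716% and 2.49%. In T-like, NK-like, B-like and alveolar macrophage-like cells Hspb1 was at 5.09 to 27.7 CPM. T-like cells had Sftpc, a transcript of alveolar type 2 cells, at 46.1 CPM in LPS+RT, 18.3 CPM in LPS, 28.5 CPM in PBS+RT and 52.1 CPM in PBS, and whether RNA of other cells had a part in the Hspb1 of these 4 of the 9 classes was not tested. Sftpc was also lower in PBS+RT than in PBS in endothelial-like cells (101 against 194 CPM) and in fibroblast-like cells (38.4 against 152 CPM), and its part in the result was not tested. The median depth of endothelial-like cells was 8117 UMIs in PBS+RT and 3174 UMIs in PBS.

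The mitochondrial chaperonin genes, which overlap at their 5' ends, differed between libraries in their own ways. Hspe1, the lid, was lowest after irradiation without LPS. In endothelial-like cells it was at 82.0 CPM (1083 UMIs) in LPS+RT, 93.1 CPM (615 UMIs) in LPS, 44.9 CPM (871 UMIs) in PBS+RT and 109 CPM (1433 UMIs) in PBS lungs. In alveolar macrophage-like cells it was at 193 CPM in LPS+RT, 257 CPM in LPS, 82.8 CPM in PBS+RT and 174 CPM in PBS, and in T-like cells at 235 CPM in LPS+RT, 322 CPM in LPS, 161 CPM in PBS+RT and 298 CPM in PBS. PBS+RT was the lowest library in each of the 3. Against PBS it was 2.42-fold (95% counting interval 2.22 to 2.63; log2 ratio -1.27) lower in endothelial-like and 2.10-fold (95% counting interval 1.97 to 2.25; log2 ratio -1.07) lower in alveolar macrophage-like cells. It was lower in 9 of 9 classes, by at least 1.5-fold in 7. LPS+RT was above PBS+RT in 9 of 9 classes, by at least 1.5-fold in 5, with 2.33-fold (95% counting interval 2.19 to 2.47; log2 ratio 1.22) in alveolar macrophage-like cells. These alveolar macrophage-like cells came mainly from cluster 16 in LPS+RT (64.1%) and cluster 4 in PBS+RT (95.9%). Within cluster 4 the log2 ratio was 0.82. Within endothelial-like clusters 0, 1, 7 and 15 the log2 ratios of PBS+RT against PBS were -0.37, -0.56, -1.29 and -0.86.

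Hspd1, the barrel, was higher in LPS than in PBS in 7 of 9 classes. In alveolar macrophage-like cells it was at 170.4 CPM (3826 UMIs) in LPS+RT, 303 CPM (2147 UMIs) in LPS, 120.1 CPM (2050 UMIs) in PBS+RT and 147 CPM (2330 UMIs) in PBS lungs. T-like cells had 90.1 CPM in LPS+RT, 169 CPM in LPS, 93.3 CPM in PBS+RT and 98.7 CPM in PBS, and platelet-like cells had 94.5 CPM in LPS+RT, 234 CPM in LPS, 98.7 CPM in PBS+RT and 104 CPM in PBS. LPS was the highest library in each of the 3, while in NK-like cells Hspd1 was at 124 CPM in LPS+RT, 145 CPM in LPS, 130.5 CPM in PBS+RT and 152 CPM in PBS. The LPS level in alveolar macrophage-like cells was 2.06-fold (95% counting interval 1.94 to 2.18; log2 ratio 1.04) that of PBS, and 4 of 9 classes were at least 1.5-fold higher. Those alveolar macrophage-like cells came mainly from cluster 16 in LPS and cluster 4 in PBS, and the part of this mix was not tested. LPS+RT was below LPS in 11 of 11 classes, by at least 1.5-fold in 9, with log2 ratios between -1.31 in platelet-like and -0.23 in NK-like cells. In endothelial-like cells it was at 60.5 CPM in LPS+RT, 102 CPM in LPS, 58.0 CPM in PBS+RT and 79.1 CPM in PBS. For PBS+RT against PBS, where Hspe1 was lower in 7 classes, Hspd1 had 0 of 9 classes past 1.5-fold, with log2 ratios between -0.45 and 0.37.

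**Figure D4:**
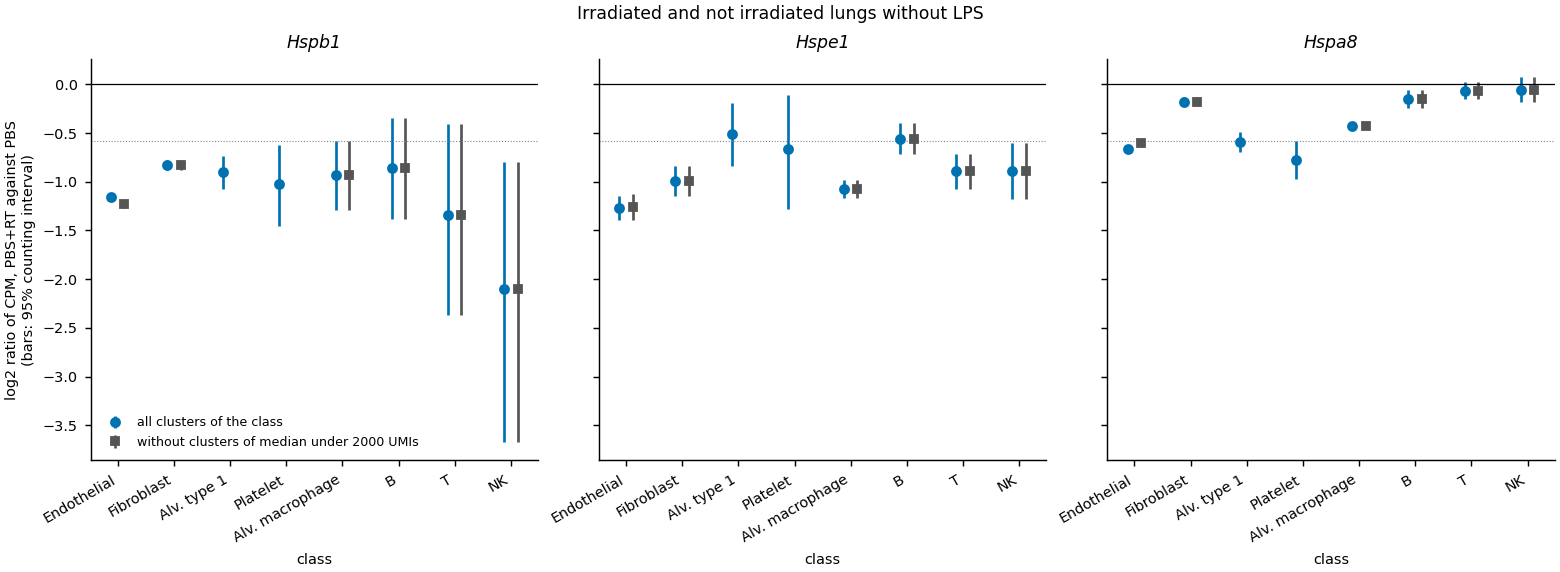
Log2 ratio of CPM of Hspb1, Hspe1 and Hspa8 for PBS+RT against PBS in 8 classes (bars: 95% counting interval; dotted line: 1.5-fold lower), with circles for all clusters and squares for classes without clusters under 2000 median UMIs. Hspb1 lay below the dotted line in all 8 classes drawn, Hspe1 in 6 of them, and Hspa8 stayed near 0 in T-like and NK-like cells.

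Over the 46 points of a class in a library with at least 100 cells (16 classes), the genes whose levels were most like those of Hspe1 and Hspd1 summed were Cct5 (Pearson's r of log2(CPM + 10) 0.93), Cct4 (0.92), Tcp1 (0.92) and Cct2 (0.92), 4 subunits of the cytosolic chaperonin TRiC, and Npm1 (0.91), a nucleolar histone chaperone. These were the first 5 of 9769 genes. Without the erythroid-like point, which lay far below the others, r was 0.86, 0.84, 0.83, 0.83 and 0.86 over 45 points. For Hspa1a and Hspa1b summed, the first 5 were Mat2a (0.74), Plekhg2 (0.73), Cep85l (0.72), Rere (0.71) and 4732471J01Rik (0.68), with lower values of r. Bag3 gave 0.60, Dnajb1 0.58 and Jun 0.61, while Hspd1 gave 0.08 and Hspe1 0.21. Among the members, Hspa1a and Hspa1b had an r of 0.92 and Hspd1 and Hspe1 one of 0.78. The points share libraries, depth and dissociation and are not independent, so these values are descriptions.

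**Figure D5:**
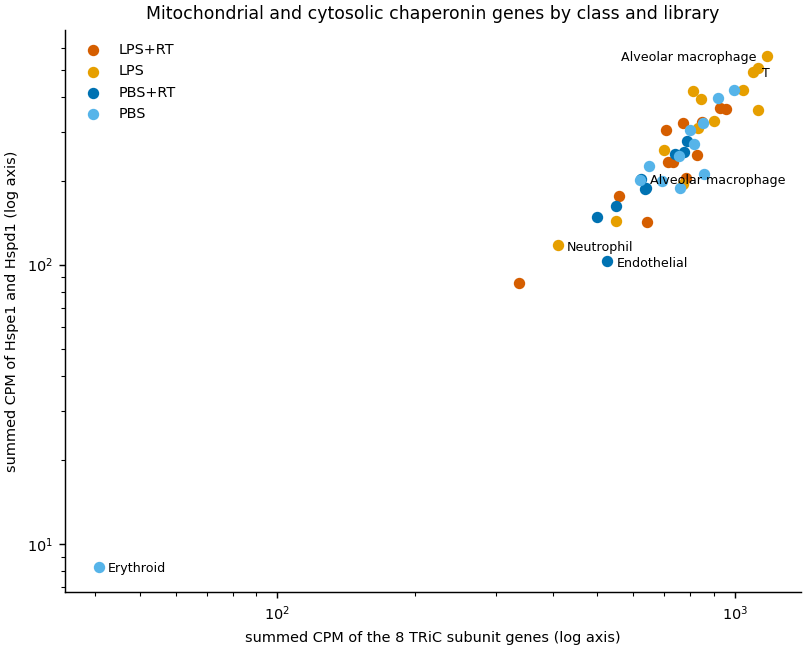
Summed CPM of Hspe1 and Hspd1 (log axis) against the summed CPM of the 8 TRiC subunit genes (log axis), with 1 point per class and library and colours for LPS+RT, LPS, PBS+RT and PBS. The points lie along a single rising band, with erythroid-like cells of the PBS lung alone at the low end.

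Other chaperone genes, in lists of 33 HSF1 and cytosolic chaperone genes, 8 TRiC genes, 7 mitochondrial chaperone and protease genes and 18 chaperones of the endoplasmic reticulum, are given as pairs of a gene and a class. In PBS+RT against PBS, where 14.2% of all pairs were lower and 16.4% higher, 55 of 252 cytosolic pairs (21.8%), 15 of 72 TRiC pairs (20.8%), 11 of 54 mitochondrial pairs (20.4%) and 53 of 158 reticulum pairs (33.5%) were at least 1.5-fold lower. The pairs higher were 5 (1.98%), 0, 3 (5.56%) and 1 (0.633%). In endothelial-like cells the median log2 ratio of that comparison was -0.31 over the cytosolic list, -0.56 over TRiC and -0.49 over the reticulum list, beside 0.01 over all genes. The named genes were Sdf2l1 and Manf, both made under reticulum stress, and Creld2. Sdf2l1 was lower in 6 of 6 classes, with 8.28 CPM in PBS+RT and 44.3 CPM in PBS in fibroblast-like cells. Manf was lower in 6 of 6 as well, with 79.4 and 189 CPM in endothelial-like cells of PBS+RT and PBS. Creld2 was lower in 5 and higher in 1, T-like cells.

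In LPS against PBS, where 13.1% of all pairs were higher and 14.7% lower, 24 of 245 cytosolic pairs were higher (9.80%) and 26 lower (10.6%), both under the background. TRiC had 5 of 72 higher (6.94%) and 0 lower, the mitochondrial list had 2 of 55 higher (3.64%) and 7 lower (12.7%), and the reticulum list had 32 of 150 higher (21.3%) and 10 lower (6.67%). Creld2 was higher in 3 of 5 and lower in B-like cells, and Sdf2l1 was higher in 2 of 5 and lower in B-like cells. In LPS+RT against PBS+RT, where 9.82% of all pairs were higher and 17.5% lower, 35 of 147 reticulum pairs were higher (23.8%) and 3 lower (2.04%). TRiC had 10 of 72 higher (13.9%) and 0 lower, the cytosolic list 27 of 243 higher (11.1%) and 18 lower (7.41%), and the mitochondrial list 3 of 54 on each side (5.56%). Sdf2l1 was higher in 5 of 5 classes, and Manf and Creld2 were higher in 4 each. In LPS+RT against LPS, where 8.31% of all pairs were higher and 10.2% lower, 54 of 184 reticulum pairs were lower (29.3%) and 4 higher (2.17%). The cytosolic list had 40 of 286 lower (14.0%) and 8 higher (2.80%), TRiC 5 of 88 lower (5.68%) and 0 higher, and the mitochondrial list 6 of 69 lower (8.70%) and 5 higher (7.25%). Stip1, which links HSP70 to HSP90, was lower in 5 of 6 classes, and Hspa5, the HSP70 of the reticulum, in 4 of 6, with 874 CPM in LPS+RT and 1901 CPM in LPS in fibroblast-like cells. Creld2 was lower in 3 and higher in 1 of 5.

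The 20 immediate early genes did not follow the chaperones in every comparison. In PBS+RT against PBS, where 29 member pairs were lower, 18 of 170 immediate early pairs were higher (10.6%, against 16.4% of all pairs) and 13 lower (7.65%, against 14.2%), both under the background. In LPS+RT against LPS, where 26 member pairs were lower, 70 of 206 were higher (34.0%, against 8.31%) and 11 lower (5.34%, against 10.2%). In LPS against PBS 25 of 169 were higher (14.8%, against 13.1%) and 56 lower (33.1%, against 14.7%). In LPS+RT against PBS+RT 20 of 170 were higher (11.8%, against 9.82%) and 34 lower (20.0%, against 17.5%). Their class totals and those of the members are measured in the same cells after the same dissociation, and what either owes to it was not tested.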

How the data were processed

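The deposited gene by cell matrices hold whole-number UMI counts, and per the file headers they were written by Cell Ranger 7.0.1, run by the authors. The submitters' processing notes name Cell Ranger 7, R 4.2.2, Seurat 4.3.0 and genome build mm10. The treatment of intronic reads is not given in the sources used here. The labels give all 4 libraries the same batch.

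Barcodes under 500 UMIs or 200 genes, or over 10% mitochondrial UMIs, were removed. Scrublet in scanpy 1.11.5 scored doublets in each library (expected rate 8%), and 1.44 to 2.50% of barcodes were removed. Cells of all libraries were clustered together (2000 variable genes, 30 components, 15 neighbours, Leiden resolution 1.5, seed 1) without the 10 genes, the 86 genes of the other lists and without correction between libraries. A cluster was named where at least 3 of a class's markers (199 genes, 26 classes) reached 10% of its cells and a 2-fold excess over the mean of the other clusters. It took the class with the highest mean marker excess. It stayed unnamed where a second class also scored high with at least 2 markers, or where its 10 leading genes held more markers of another class. Clusters with few UMIs also needed a marker of their own class among those 10 genes. These limits, and the joining of dendritic clusters into 1 class, were set after the clusters were inspected.

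UMIs were summed per class and library, from classes of at least 100 cells, and divided by the class total to give CPM. Levels have exact Poisson intervals and ratios exact conditional binomial intervals, at 95%. Totals were 65995600 to 80013887 UMIs per library. PCR copies are removed by UMIs, but cells of 1 library are not replicates. For shares, cells were thinned to 1500 UMIs. A gene with 0 UMIs was set to a floor of 3 counts for a ratio. The scripts were tested on simulated data.

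In each comparison the list genes named were the 3 past 1.5-fold in the most of the 6 largest classes, with ties broken by the median size of their log2 ratios. In the comparison of LPS against PBS, 1 gene that this rule named is not reported here. Alternatives, 12 planned and 1 added after seeing the data, are given at the end. The 10 genes and the gene lists were chosen with earlier results of these data known. Sequences came from RefSeq. Other tools were scipy 1.17.1 and numpy 2.4.6 under Python 3.11.15, anndata 0.12.19, pandas 2.3.3, leidenalg 0.10.2, igraph 0.11.9, scikit-learn 1.9.0 and matplotlib 3.10.9.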

Additional observations from a re-analysis of the deposited data

Results flagged for a closer look

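Hspa1a in endothelial-like cells had a log2 ratio of 0.67 for LPS+RT against PBS+RT and of -0.67 for LPS against PBS, and the counting intervals of both lay on opposite sides of 0. The irradiated ratio exceeded the other by 1.34. Hspb1 in the same cells stood at 0.71 with irradiation on both sides and at -0.83 without it, a difference of 1.54. Within cluster 1 of these cells LPS against PBS gave 0.73 for Hspa1a and 0.35 for Hspb1. Clusters 0, 7 and 15 gave values below 0 for both genes. In platelet-like cells Hspa1b gave 1.13 and -0.90, a difference of 2.03, on 8 UMIs in LPS and 5 in PBS+RT, and the 1.13 became -0.57 with cells named by their own marker score. In NK-like cells Hspb1 gave 1.15 and -2.23, a difference of 3.38, on 6 to 27 UMIs per library. The same NK-like values read the other way, with 1.28 for LPS+RT against LPS and -2.11 for PBS+RT against PBS, give the same 3.38 from the same 4 libraries. What drew attention to each was an effect of LPS that pointed one way with irradiation and the other way without it. With 1 library per group, none of these differences was tested.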

How the results depend on the processing

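No paired analysis was possible because each group was 1 library. Of 229 log2 ratios with 2819 values under other settings, 2412 moved by less than counting error, 404 moved further and 3 turned. These ratios cover endothelial-like, alveolar macrophage-like, B-like, fibroblast-like, T-like and platelet-like cells. NK-like cells and the remaining classes were not rechecked gene by gene. The 3 that turned were past 1.5-fold at first, and smaller values that changed sign, as fibroblast-like Hsph1 after thinning, are not among them. Hspa1a in alveolar macrophage-like cells, LPS against PBS, was 0.69 and became -0.84 with doublets kept. With cells named by their own marker score, platelet-like Hspa1b and Hspb1 for LPS+RT against PBS+RT, 1.13 and 0.61, became -0.57 and -0.51. The cause was not tested. The 26 lower pairs of LPS+RT against LPS were 13 with cells thinned to 1500 UMIs, and the 11 higher pairs were 7 with at most 5% mitochondrial UMIs and 7 without clusters under 2000 median UMIs. That last setting, added after seeing the data, left fewer classes to read. The 16 lower pairs of LPS against PBS were 10 in both of these settings, and the 29 lower pairs of PBS+RT against PBS were 17 with at most 5% mitochondrial UMIs and 14 without the shallow clusters. The 0 higher pairs of PBS+RT against PBS were 2 with each cell weighted equally, 1 without the 1% of cells highest in member UMIs and 6 after thinning. The 4 lower pairs of LPS+RT against PBS+RT were 2 with equal weight, 2 when centred, 0 within 1 cluster per class, 1 after thinning and 0 without the shallow clusters. Of pairs still readable without the shallow clusters, 21 of 21 higher and 10 of 10 lower pairs stayed past 1.5-fold for LPS against PBS, 14 of 14 higher for LPS+RT against PBS+RT, 7 of 8 higher and 20 of 20 lower for LPS+RT against LPS, and 14 of 14 lower for PBS+RT against PBS. With cells thinned to 1500 UMIs, 15 of 21 higher and 8 of 10 lower pairs were kept for LPS against PBS, 13 of 14 higher and 0 of 3 lower for LPS+RT against PBS+RT, 5 of 8 higher and 11 of 20 lower for LPS+RT against LPS, and 17 of 23 lower for PBS+RT against PBS. Counts were low for Hspb1 in NK-like and T-like cells, with 6 to 39 UMIs per library, and for Bag3 in B-like and NK-like cells, with 12 to 35.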
